A study of Phalaenopsis aphrodite with 54 samples.

Results

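In the moth orchid *Phalaenopsis*, 200 transcript contigs were chosen by their array signal in flowers. It was higher on each of the 4 sampled days after pollination than in the flower labelled V3-Flower and in the large bud. They were taken from 43662 contigs on the array by a rule that used the deposited log2 table. For each contig the brighter probe was kept, the arrays of a condition were averaged, and the higher of the means of V3-Flower and Bud-L was subtracted from the lowest mean among SF-1d, SF-3d, SF-8d and SF-15d. The 200 contigs with the largest result were kept, after the contigs named in the text of the study had been left out; 2 of those would otherwise have been among the first 200. The levels of the 4 days, of V3-Flower and of Bud-L therefore chose the members, and they are given below as a description with no test.

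Pollination starts a long programme in orchid flowers. The pollinia, which are packets of pollen, germinate on the stigma inside the column, pollen tubes grow toward the ovary, the perianth wilts, and the ovary, which lies in the pedicel region below the flower, starts to enlarge while ovules form and mature. In many orchids ovule development is itself started by pollination, so a pollinated flower mixes wilting tissue with tissue that is newly growing.

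The pollinated flowers were labelled as flowers of the tetraploid hybrid Sogo Yukidian V3, collected at 1, 3, 8 and 15 days after pollination (SF-1d, SF-3d, SF-8d and SF-15d). From the same hybrid came small buds under 1 cm (Bud-s), large buds over 1 cm (Bud-L) and the flower (V3-Flower), whose label gives no stage. The hybrid also gave pollinia, pedicel, column, lip, petal and sepal. The species *P. aphrodite* gave roots (Pa-Root), leaves (Pa-Leaf), flower stalks (Stalk), young inflorescences (YF), inflorescences (F), flowers (Pa-Flower) and buds (Bud). No treatment other than pollination was named for any of these groups. Whether an unpollinated flower of the same age would differ was not analysed here, so flower age and pollination cannot be told apart.

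Each condition had 2 arrays of amplified RNA, except Pa-Leaf with 3, which made 41 arrays in 20 conditions; 13 further arrays carried RNA labelled without amplification. Spot intensities of the amplified arrays had a 75th percentile of 2335 to 8107. The share of spots well above background was 71.2% to 80.7%, and no spot was saturated. Levels are given as quantile-normalized log2 signal, in which 4.32 is the floor of 20 intensity units. The arrays of a condition were close: in 14 conditions, all pollination days, V3-Flower and both V3 buds among them, probe means of the arrays differed by no more than the 2 spots of a probe within an array. Those arrays were counted as 1 replicate, and no spread between separate plants is known for the pollination series. The V3-Flower arrays, the Bud-L arrays and the SF-1d arrays were each scanned in a batch that held none of the other conditions the rule used, so scan batch cannot be told apart from the difference between the days and the baselines. SF-3d and SF-8d shared 2 batches, and SF-15d was scanned in 1 of these.

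The value of the rule was 6.98 on the log2 scale for the first member and had a median of 2.17, and 120 members exceeded a 4-fold excess on every day. At the edge of the list, PATC055100 at rank 199 had a value of 1.56 and PATC070212 at rank 200 also 1.56, against 1.56 for PATC146219 at rank 201 and 1.56 for PATC069445 at rank 202, so the boundary separated contigs of practically equal value. A second probe was present for 102 members. In 96 of these the dimmer probe, which the rule did not use, also lay above both baselines on every day, and its median value was 1.99. It read the same RNA on the same arrays, so it is not a check independent of the rule. Its share among contigs outside the list was not counted. All 200 members were well above background on every array of the 4 days, while 126 were so on both V3-Flower arrays and 138 on both Bud-L arrays. The files name the contigs by identifier only, so no gene name or role is given for a member.

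The members with the largest values were at or near the floor in V3-Flower. PATC068580 had signals of 4.64 and 4.80 in Bud-L and 5.04 and 4.94 in V3-Flower, then 12.16 and 12.10 on day 1, 12.08 and 12.06 on day 3, 12.38 and 12.41 on day 8 and 12.47 and 12.40 on day 15. It was thus at a plateau from the first day onward. PATC051848 had 4.32 on both Bud-L arrays and 5.24 and 4.75 in V3-Flower, and its level then climbed through 11.43 and 11.40 on day 1, 12.52 and 12.58 on day 3 and 13.67 and 13.77 on day 8 to 15.06 and 15.04 on day 15. PATC022615 had 4.75 and 4.97 in Bud-L, 4.32 and 4.61 in V3-Flower, 12.09 on both day 1 arrays and its peak at 13.39 and 13.44 on day 8. No array of another condition came near these 3 contigs: the lowest day mean lay 3.95, 4.35 and 4.83 log2 units above the highest of the 16 other conditions in PATC068580, PATC051848 and PATC022615, and those highest conditions were YF, YF and F.

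The next 7 members by rank also had signal in other tissues. PATC211748 and PATC168381, at 4.32 in Bud-L, peaked on day 3 with 13.06 and 13.16 in PATC211748 and 11.23 and 12.63 in PATC168381, and outside the pollination series were above background in Stalk, at 8.72 on both arrays and at 8.09 and 8.06, and in YF. PATC152734 had 10.68 and 10.76 on day 1 and 10.85 and 10.83 on day 3 and reached 9.05 and 9.04 in YF. PATC116059 and PATC093003 were at 4.32 in V3-Flower and in Bud-L, yet had 8.73 and 8.31 and then 8.46 and 8.55 in the petal. PATC129986 had 14.28 and 14.23 on day 8 against 9.30 and 9.20 in V3-Flower, while petals stood at 13.60 and 13.45 and sepals at 13.48 and 13.27. The separated perianth organs and V3-Flower, of the same hybrid, therefore did not have the same level of these contigs. PATC215816, rank 5, stood at 5.05 and 4.99 in V3-Flower and 4.87 and 4.83 in Bud-L but at 11.75 and 11.80 in pollinia, 11.19 and 11.24 in the column and 10.11 on all 3 Pa-Leaf arrays. Its low levels were in V3-Flower, Bud-L, sepal, YF and F.

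**Figure D1:**
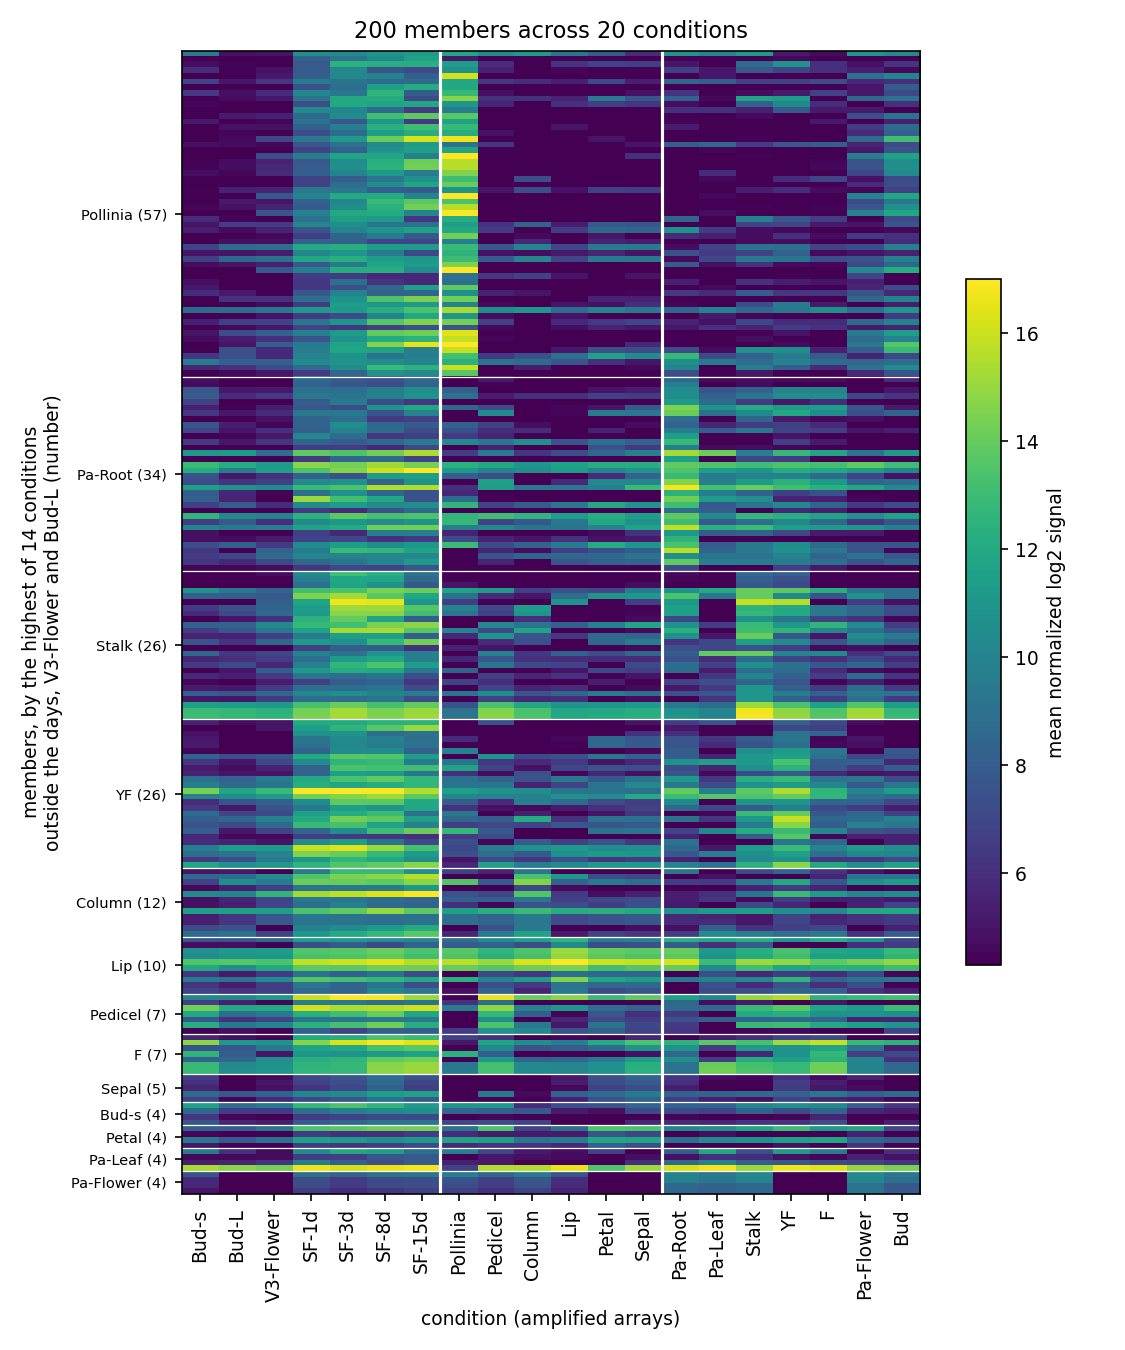
Mean normalized log2 signal of the 200 members (rows, grouped by which of 14 conditions was highest outside the 4 days, V3-Flower and Bud-L, with the number of members) in the 20 amplified conditions (columns). The 57 members in the top block are bright in pollinia, by which they were grouped, and on the days. Their medians are at the floor in the other V3 organs, though not every member is dark there. The next blocks below are bright in roots, stalks or young inflorescences, by which they were grouped.

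The course over the days differed among the members. The highest of the 4 days was day 1 in 24 members, day 3 in 57, day 8 in 49 and day 15 in 70. The median member level was 5.95 in Bud-s, 5.23 in Bud-L, 6.13 in V3-Flower, 9.53 on day 1, 10.73 on day 3, 11.22 on day 8 and 10.74 on day 15, where all contigs above background had medians between 10.35 and 10.50 in these conditions. The level went up from each day to the next in 43 members and down in 9. The lowest and highest day differed by more than 4-fold in 115 members and by less than 2-fold in 38.

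A few members stood out for 1 day. PATC145649 had 15.03 and 15.06 on day 1, 13.21 and 13.11 on day 3, 11.95 and 11.80 on day 8 and 7.45 and 7.47 on day 15, after 4.32 on both V3-Flower arrays. It was also high in Pa-Root, at 14.25 and 14.26. PATC141950 peaked on day 1 at 9.71 and 9.64; its dimmer probe had a value of -0.16 by the rule, so the second probe did not share the pattern. PATC006468 and PATC182200 were highest on day 3, at 8.95 and 8.90 and at 10.23 and 10.19, which exceeded the next day by 2.56 and 2.30 log2 units. PATC092174 and PATC138273 were highest on day 8, at 12.62 on both arrays and at 10.89 and 10.91. PATC099491 and PATC138414 were highest on day 15, at 11.47 and 11.49 and at 16.26 and 16.21. Of these 8 contigs, the 6 with their peak on days 3, 8 and 15 had a mean in pollinia at or above that of their peak day.

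Many members were brighter in another tissue than after pollination. Over all 20 conditions 95 members were highest on 1 of the 4 days and 105 in another condition: 43 in pollinia, 24 in Pa-Root, 10 in Stalk, 7 in lip, 7 in YF and the rest in 6 other conditions. In 27 members every day lay above all 16 other conditions, in 6 of them by more than 2-fold and in 5 by more than 4-fold. Those 6 were PATC022615, PATC051848, PATC068580, PATC081707, PATC003537 and PATC125905; PATC081707 and PATC003537 were chosen for mention after their values had been seen. The small bud was not used by the rule, and 188 members lay above it on every day, 119 by more than 4-fold. Its arrays shared a slide and a scan batch with those of Bud-L, which the rule required to lie below every day. The small bud is therefore not a check independent of the rule. Pollinia were above every day in 52 members, 21 of them by more than 4-fold, roots in 30 and stalks in 21. The counts of this paragraph were not made over all contigs, so none of them is read as particular to the members.

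**Figure D2:**
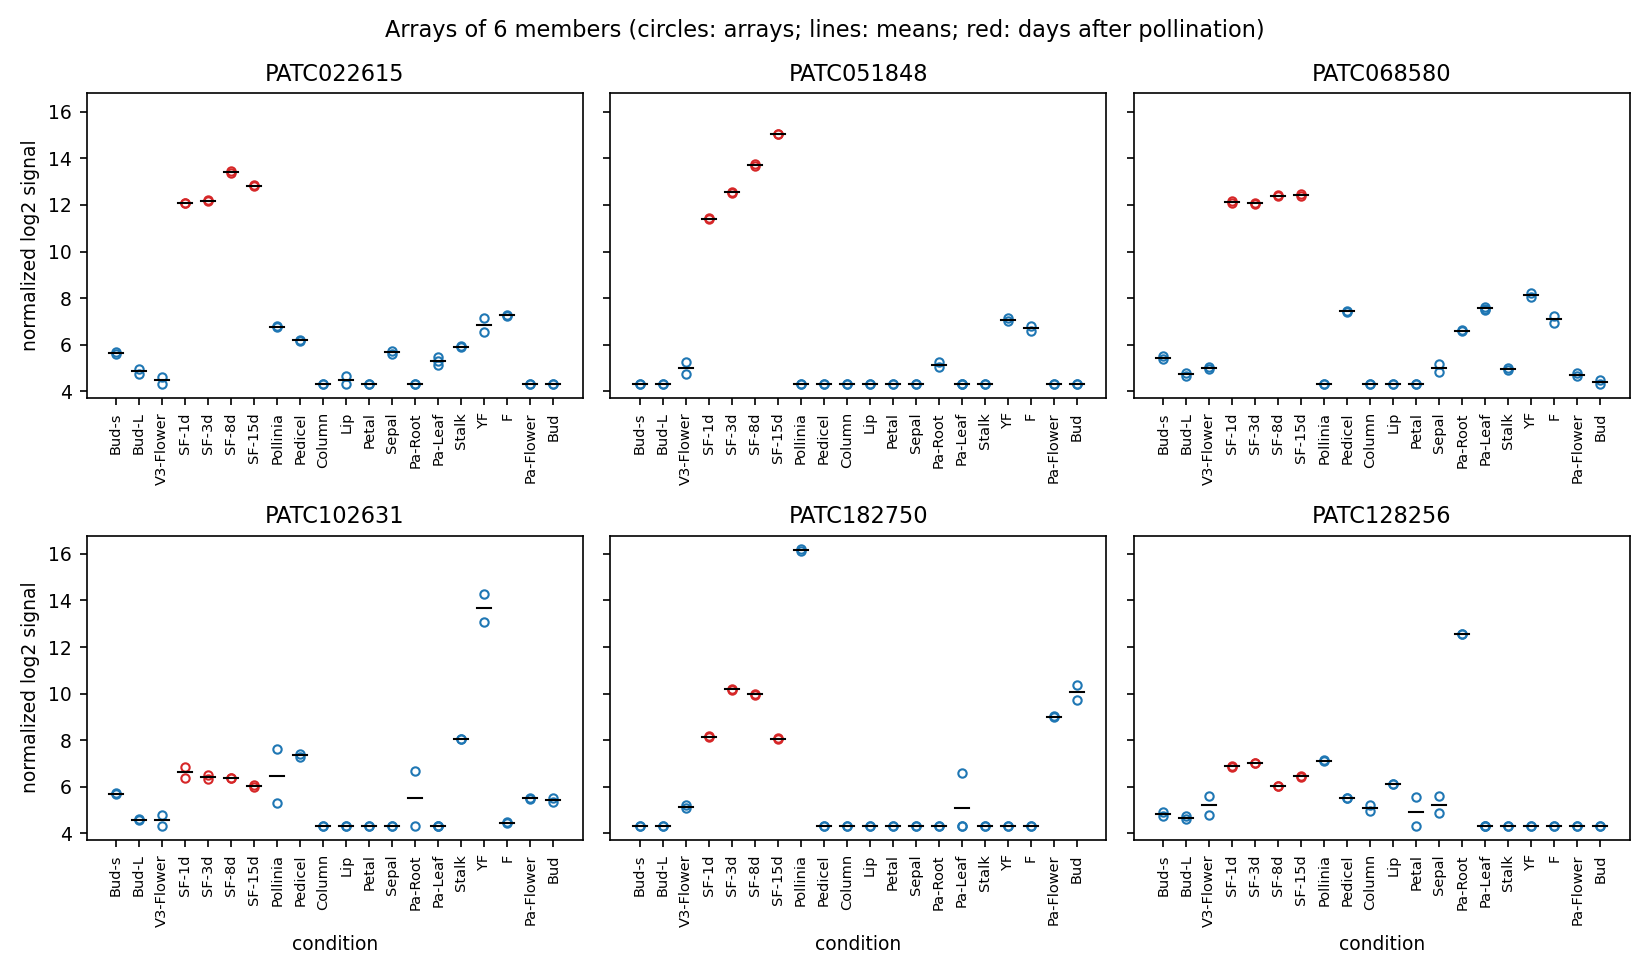
Normalized log2 signal of each array (circles; red for the days after pollination) and condition means (lines) for 6 members in 20 conditions. In the top row the days sit between 11.40 and 15.06, above all other conditions; in the bottom row YF, pollinia or Pa-Root is the highest condition.

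Other members were far brighter elsewhere than after pollination. PATC102631 had 14.26 and 13.09 in YF, and on the days no array above 6.85. PATC182750 had 16.11 and 16.19 in pollinia and peaked at 10.21 and 10.15 on day 3. PATC128256 had 12.55 on both Pa-Root arrays and at most 7.01 on a day. The highest condition exceeded the highest day by 7.06, 5.97 and 5.54 log2 units in PATC102631, PATC182750 and PATC128256.

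Leaving aside the days and both baselines, the highest of the 14 conditions left was pollinia in 57 members (28.5%), Pa-Root in 34 (17%), Stalk in 26 (13%), YF in 26 (13%), column in 12 and lip in 10. Among all 35641 contigs well above background in some condition, pollinia were highest in 28.2%, Pa-Root in 5.74%, Stalk in 4.87% and YF in 4.08%. The share of members highest in pollinia was thus close to that of all contigs, with no test. The share of members highest in roots, stalks and young inflorescences lay above that of all contigs. None of these shares is independent of the rule, since members had to lie lower in V3-Flower and Bud-L than on every day. Pa-Leaf was highest in 4 members (2.00%) against 10.8% of all contigs, and Bud in 0 members against 2.77%.

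The 57 members highest in pollinia had a median of 4.42 in Bud-s, 4.67 in Bud-L, 5.30 in V3-Flower, 8.29 on day 1, 10.31 on day 3, 11.22 on day 8 and 11.17 on day 15, and of 13.03 in pollinia. In sepal, petal, lip, column and pedicel their medians were all at the floor of 4.32. Of the 57, 25 had their highest day on day 15, and 37 had their lowest on day 1. Pollinia shared scan batches with SF-3d, SF-8d and SF-15d, but not with SF-1d, V3-Flower or Bud-L. Scan batch therefore cannot be told apart from the lower levels on day 1 and in the baselines. In *P. aphrodite* they had medians of 8.03 in Bud and 6.51 in Pa-Flower, and 4.32 in Pa-Leaf. The 34 members highest in Pa-Root had medians of 12.72 there and of 8.94, 9.53, 9.71 and 10.07 on days 1, 3, 8 and 15, after 5.94 in V3-Flower. The 52 members highest in Stalk or YF peaked mainly in the middle of the series, with day 3 or day 8 highest in 41 of them.

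Markers of pollinia, which are not members, moved in the same samples. PaMδS-1 (PATC138798), a MADS box gene of the Mδ type, had 4.32 on both Bud-s arrays, 7.64 and 7.56 in Bud-L, 5.59 and 5.68 in V3-Flower, 8.10 and 8.06 on day 1, 10.63 and 10.66 on day 3, 12.97 and 13.03 on day 8 and 14.42 and 14.40 on day 15. In pollinia it had 15.59 and 15.64. PaAP2-7 (PATC138345) had 7.59 in V3-Flower and between 9.49 and 11.01 on the days, PabZIP-2 (PATC134262) 9.57 and between 10.31 and 12.12, PaMYB-2 (PATC152106) 8.16 and between 9.06 and 10.23, and PabHLH-3 (PATC140443) 10.22 and between 10.58 and 11.10. All 5 markers were above V3-Flower on all 4 days, but 4 of the 5 were higher in Bud-L than on any day. The summed signal of the 5 lay 1.01, 1.99, 2.49 and 3.61 log2 units above V3-Flower on days 1, 3, 8 and 15 and 3.72 above it in Bud-L. Without PaMδS-1 the sum lay 0.95, 1.76, 1.23 and 1.79 above V3-Flower on those days. The column markers PaAG-2 (PATC138585) and PaAG-3 (PATC155109) were above V3-Flower on 0 and 1 of the days, the pedicel marker PaAG-4 (PATC202120) on 2, and the lip marker PaAGL6-1 (PATC154379) on 0, with 15.13 in V3-Flower and 10.85 on day 15. Of the markers of all organs but pollinia, PaPI-1 (PATC152852), a class B MADS box gene, lay below V3-Flower on all 4 days, at 16.12 in V3-Flower and between 13.93 and 14.45 on the days. PaAP3-2 (PATC133864), of the same class, lay above it on all 4, at 11.52 in V3-Flower and between 12.31 and 14.15 on the days. The part of these marker differences in the members' levels was not tested, and in a whole flower a changed share of a tissue and a changed level per cell cannot be told apart.

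**Figure D3:**
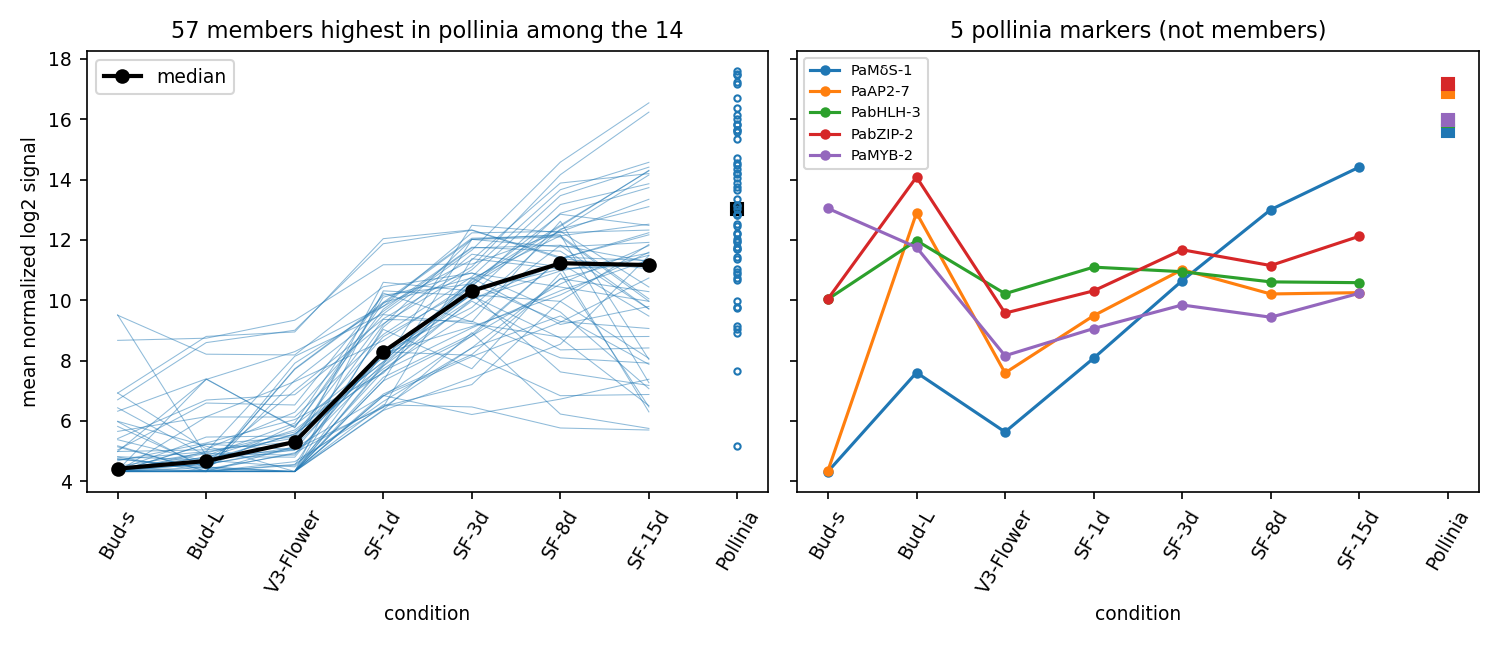
Left, mean normalized log2 signal of the 57 members highest in pollinia among the 14 conditions (blue lines) with their median (black) along the bud, flower and pollination series and in pollinia. Right, the same for 5 pollinia markers, of which PaMδS-1 climbs over the days to 14.41 and the other 4 stay between 9.06 and 12.12 on the days.

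The V3-Flower arrays, which set the baseline, carried virus signal. All 4 probes for Odontoglossum ringspot virus (ORSV) lay between 7.02 and 8.90 on both V3-Flower arrays, and on the Bud-L and SF arrays none exceeded 4.69. A probe for *Cymbidium* mosaic virus (CymMV) reached 9.25 in V3-Flower, 8.48 on day 1 and 6.54 on 1 array of day 3. With Bud-L by itself as the baseline, 71 of the 200 members stayed among the first 200, and with V3-Flower by itself 39 did, so the list rests on the demand for both. The part of the virus signal in the members' levels was not tested.

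**Figure D4:**
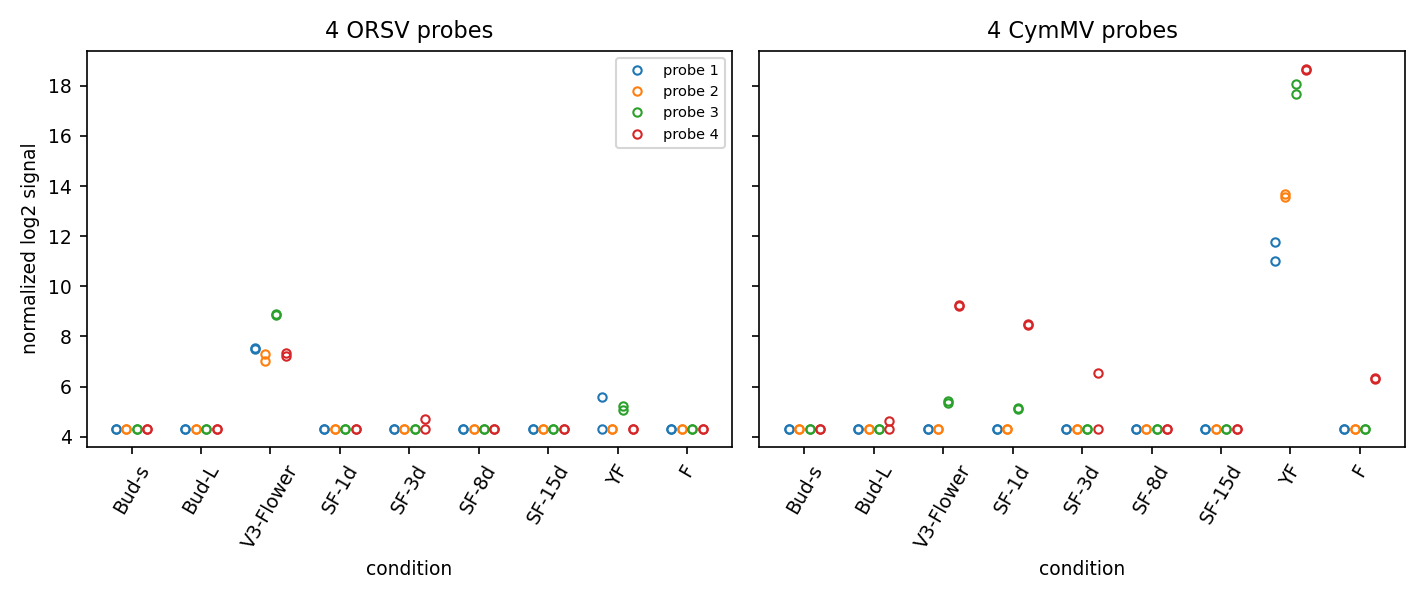
Normalized log2 signal of the 4 ORSV probes (left) and the 4 CymMV probes (right) on each array of 9 conditions. ORSV probes lie between 7.02 and 8.90 in V3-Flower and near the floor in the pollinated flowers, and the 4 CymMV probes reach 11.76 to 18.68 in YF.

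The arrays of the floral organs and of the *P. aphrodite* tissues were not used by the rule. The organs are parts of the V3 flower, however, whose level the rule required to lie below every day. Flowers and buds of *P. aphrodite* are stages like the V3 baselines. The organ comparisons and flower against bud are therefore not independent of the choice of members. The 5 comparisons were tested with limma over all contigs that were well above background in at least 1 condition compared. A call needed more than a 4-fold difference together with a Benjamini-Hochberg adjusted p below 0.05. Pollinia, pedicel, column, root, leaf and flower each counted as 1 replicate, so the p-values rest on the spread within the sepal, petal, lip, YF, F and Bud arrays. The arrays of each of these latter conditions were split over the same scan batches. That spread therefore cannot be told apart from a difference between batches, and it is not known to measure a spread between plants. The methods state that the floral organ arrays came from separate collections and that leaves, roots, buds and open flowers were repeated, so averaged arrays may nonetheless hold different samples. Members that entered a test only through the condition in which they were bright had to differ, so counts are given out of all 200. The shares of all contigs beside them are out of the contigs tested.

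Pollinia held the largest differences. Against the other 5 floral organs 82 of the 200 members were higher and 34 lower, with 191 tested; of all contigs tested 19.2% were higher and 18.1% lower. The median difference was 0.86 over the 200 members and 0.00 over all contigs, and it was 1.03 and 0.93 on the scale of the deposited table, so the excess of the members' median depended on the scaling. Of the members tested, 28 passed the filter only through pollinia and 43 only through other organs. PATC059937 had 17.58 and 17.62 in pollinia, and every array of the other 5 organs was at 4.32. It was at least 9958-fold higher in pollinia, through which it had entered the test. PATC199170, which had also entered only through pollinia, and PATC194643 were at least 9165-fold and 8942-fold higher. These 3 contigs had nearly the same profile over the 20 conditions, with pairwise r between 0.9992 and 0.9999 as a description, and on the days peaked between 12.01 and 12.33 in the middle of the series.

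Among the members lower in pollinia, PATC143382 was at 4.32 on both pollinia arrays, against means of 14.43 over the other organs, and so at least 1101-fold lower. It had entered the test only through the other organs. On the days it was among the brightest members, at 17.24 and 17.23 on day 3 against 11.09 on both V3-Flower arrays. PATC075912 had 6.62 and 6.92 in pollinia, against a range of 13.12 to 16.73 elsewhere in the flower, and differed by -8.49 ± 0.43 (SE). PATC155162 differed by -6.41 ± 0.17 (SE). Within the scan batch that held all 6 organs, all 82 and 34 members kept their sign.

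In the pedicel, which carries the ovary, 33 members were higher and 18 lower than in sepal, petal and lip, with 159 tested. Of all contigs tested 3.97% were higher and 2.15% lower. Of the members tested, 17 passed the filter only through the pedicel and 16 only through the perianth. PATC150662 had 12.79 and 12.75 in pedicels, against 6.26 and 5.86 in sepals, 7.73 and 7.55 in petals and 4.32 and 4.66 in lips, a difference of 6.71 ± 0.22 (SE; adjusted p = 1.5e-07, limma). PATC155095 and PATC144516 differed by 6.35 ± 0.26 and 5.40 ± 0.36 (SE). PATC144516 also had every day above all other conditions, with 16.18 and 16.12 on day 1. Lower in the pedicel were PATC147489, with 5.90 and 5.83 against a perianth mean of 10.27, PATC056649, at 4.32 on both pedicel arrays and at least 18.0-fold lower, and PATC035666, at -3.88 ± 0.08 (SE). PATC056649 had entered the test only through the perianth. All 33 and 18 kept their sign and a 4-fold difference within 1 scan batch. With normexp background correction 9 in place of 18 were lower.

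In the column, which bears the stigma, 28 members were higher and 31 lower than in the same perianth organs, with 152 tested. Of all contigs tested 2.80% were higher and 3.61% lower. Of the members tested, 10 passed the filter only through the column and 36 only through the perianth. PATC125905 had 13.56 and 13.53 in columns, against at most 6.45 on any perianth array, a difference of 7.98 ± 0.27 (SE; adjusted p = 2.0e-07, limma). After pollination its mean climbed further on each day, and on day 15 the arrays had 17.28 and 17.31 against 12.64 and 12.62 in V3-Flower. PATC144684 and PATC144685 were at least 158-fold and 132-fold higher in the column and had r = 0.9970 over the 20 conditions. PATC144685 was not well above background on any perianth array and had entered the test only through the column. Lower in the column were PATC147489, which was also lower in the pedicel, PATC129986 at -5.06 ± 0.12 (SE), and PATC154169, at least 21.7-fold lower. PATC154169 had entered the test only through the perianth. On the scale of the deposited table, where the median over all contigs was 0.39, the count was 27 higher and 19 lower, and with normexp it was 14 higher and 15 lower. All 28 and 31 kept their sign within 1 scan batch.

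In *P. aphrodite* 69 members were higher in root than in leaf and 12 lower, with 155 tested. Of all contigs tested 7.83% were higher and 6.32% lower. Of the members tested, 44 passed the filter only through root and 13 only through leaf, which bears on the split. The median difference was 0.73 over the 200 members and 0.00 over all contigs, and it was 1.17 and 0.21 on the scale of the deposited table. PATC136429 had 12.92 and 12.90 in roots and 4.32 on all 3 leaf arrays, and was at least 385-fold higher in root, through which it had entered the test. PATC128256 was at least 300-fold higher and PATC144684, named above for the column, at least 271-fold higher. Both had likewise entered the test only through root. PATC128368 had 8.05 and 7.96 in roots against 13.93, 13.94 and 13.91 in leaves, and PATC130790 and PATC148185 were lower in root by -5.03 and -4.96. The root arrays and the leaf arrays were scanned in separate batches, so tissue and batch cannot be told apart there. With normexp 6 in place of 12 were lower.

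The unamplified arrays held roots and leaves of both genotypes, compared with no test and also scanned in separate batches. The median difference over the 200 members was 0.13 in V3 and 0.12 in *P. aphrodite* there, smaller than on the amplified arrays. With a difference over 4-fold and no overlap of the arrays, 41 members were higher and 8 lower in V3 roots than in V3 leaves. Of all contigs well above background in either tissue, 4.54% were higher and 2.93% lower. The filter was passed by 150 members. Well above background on every array were 146 members in V3 roots and 106 in V3 leaves, which bears on the split. In *P. aphrodite* 46 were higher and 6 lower, against 5.23% and 3.69% of all contigs well above background in either tissue. There 153 members passed the filter, and how many did so through root only was not counted. By these criteria 37 members were higher in root in both genotypes, 5 were lower in both, and 0 went in opposite directions.

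In *P. aphrodite* flowers 17 members were higher and 23 lower than in buds, with 171 tested. Of all contigs tested 5.81% were higher and 8.12% lower. Of the members tested, 18 passed the filter only through flowers and 15 only through buds. PATC129986 had 11.79 and 11.76 in flowers, against 6.94 and 7.07 in buds, a difference of 4.77 ± 0.13 (SE; adjusted p = 3.9e-08, limma), and PATC139762 and PATC155338 differed by 4.07 ± 0.15 and 3.95 ± 0.11 (SE). PATC138931, PATC138414 and PATC154983, all of them high in pollinia, were lower in flowers by -4.95, -4.39 and -4.25. On the scale of the deposited table, where the median over all contigs was -0.16, the count was 13 higher and 41 lower, and with normexp it was 8 higher and 8 lower. All 17 and 23 kept their sign within 1 scan batch.

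**Figure D5:**
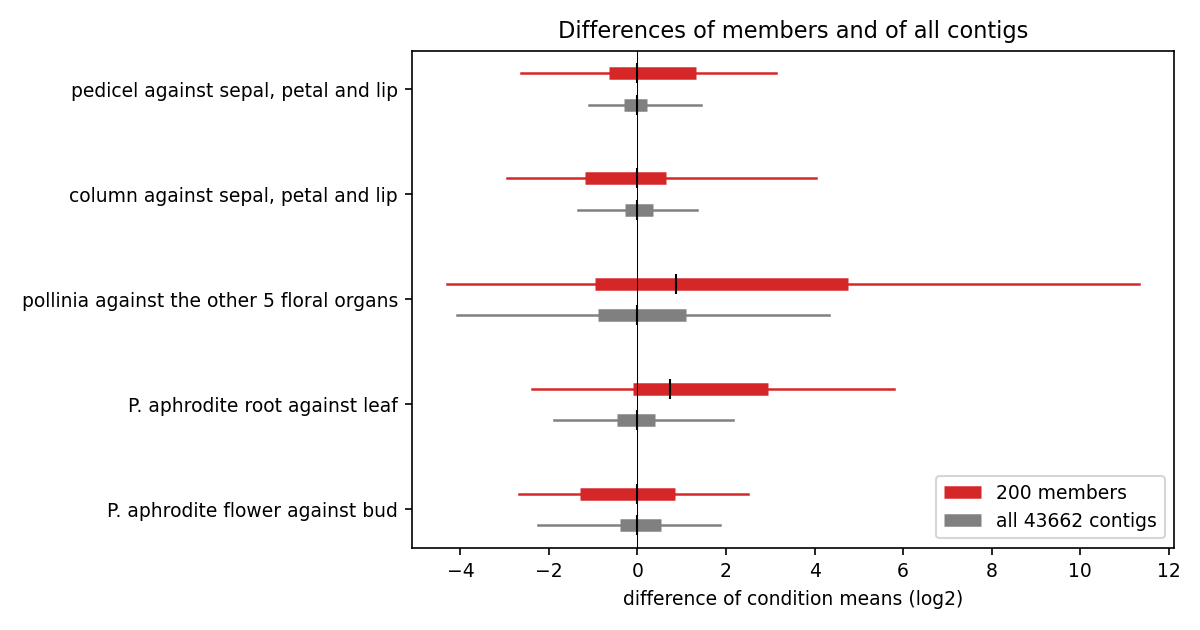
Differences of condition means on the log2 scale in 5 comparisons for the 200 members (red) and all 43662 contigs (grey). Thick bars span the middle of the distribution between its quartiles, thin lines run between the 5th and 95th percentiles, and black ticks mark medians, which for members lie at 0.86 in pollinia and 0.73 in root and otherwise at 0.00.

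Members differed in 1 direction between the inflorescence stages of *P. aphrodite*. With a difference over 4-fold and no overlap of the arrays, 47 members were higher in YF than in F and 0 were lower. The filter asked for signal well above background on every array of YF or of F. It was passed by 167 members, and of all contigs that passed it 1.95% were higher and 1.75% lower. On every array 159 members were well above background in YF and 158 in F. Members that passed only through YF could hardly be lower there. This pair was described without a test. All 4 CymMV probes were well above background on both YF arrays, where they reached 11.76 to 18.68, against at most 6.33 on the F arrays, and the part of that signal in the members' levels was not tested. Between stalks and leaves, described in the same way, 66 members were higher in stalks and 7 lower, of 151 that passed the filter. Of all contigs that passed it, 8.98% were higher and 7.03% lower. On every array 144 members were well above background in stalks and 111 in leaves. Members that passed only through stalks could hardly be lower there, which bears on the split. Stalks and leaves were scanned in separate batches, so tissue and batch cannot be told apart there. The CymMV probes reached no more than 6.72 in stalks, where 1 of them was well above background on both arrays. Their part was not tested there.

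The list holds fewer separate profiles than contigs. A partner with r above 0.99 over the 20 condition means was found within the list for 52 members, which share arrays and depth. Among the named contigs PATC211748 and PATC168381 (r = 0.9987) and PATC130790 and PATC148185 (r = 0.9998) were such pairs. Whether such contigs belong to 1 transcript was not tested, so counts of members are counts of contigs and not of genes.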

How the data were processed

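RNA of 54 samples was hybridized with 1 Cy3-labelled sample per array. The authors deposited spot intensities written by Feature Extraction 10.7.1.1, which corrects background within each array, and a log2 table. In that deposited table the values are processed intensities, at least 20, as log2 less about the 75th percentile of each array. It was not quantile normalized, although the methods name quantile normalization. It served for choosing the members. For all else, deposited intensities (floor 20, outlier spots left out) were converted to log2 and normalized by quantiles, separately for amplified and unamplified arrays. A probe with 0.5 or more of its spots well above background counted as such.

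Arrays of a condition whose probe means differed no more than spots within an array (ratio of 1 or less) were averaged, leaving 26 replicates and 6 residual degrees of freedom in limma 3.58.1 (R 4.3.3). Where a dim condition was not well above background, the fold is a lower bound against the floor. In simulated data with 200 changed contigs, between 186 and 194 were called in the 5 comparisons, with 0 or 1 others.

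Named are the 10 first members, the contigs at the edge of the list, up to 3 members per direction and comparison, 2 per day, and 3 each with the largest excess of the days and of another condition. Members, lists and tests were chosen with earlier results of these data known. Alternatives were normexp with an offset of 50, a floor of 5, the deposited table, no filter, other probes, other fits and each array left out. The array number limits the precision.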

Additional observations from a re-analysis of the deposited data

Results flagged for a closer look

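Virus probes lie outside the comparisons, and some gave signal on arrays of V3-Flower and YF. On the V3-Flower arrays the 4 ORSV probes reached 7.55, 7.28, 8.90 and 7.34 in normalized log2 signal, and 2 CymMV probes reached 5.44 and 9.25. On the YF arrays the 4 CymMV probes reached 11.76, 13.67, 18.07 and 18.68, and 1 ORSV probe reached 5.23. A second ORSV probe had 5.58 on 1 YF array and the floor on the other. On the Bud-s, SF-8d and SF-15d arrays, among others, all 8 probes were at the floor of 4.32.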

How the results depend on the processing

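No paired analysis was possible because the labels give no replicate numbers. With slide as a random block, and with scan batch as a term where that could be run, every count of the 5 comparisons stayed within 1.5 times its value. These fits counted every array as a replicate, also the arrays that the main fit averaged. With each array left out in turn, members higher and lower numbered 33 to 34 and 18 to 19 for the pedicel, 24 to 28 and 29 to 32 for the column, 82 to 83 and 32 to 36 for pollinia, 68 to 72 and 12 to 13 for root, and 17 to 18 and 22 to 26 for flower against bud, and 192 to 200 members stayed on the list. With normexp, 9 members were lower in the pedicel, 14 higher and 15 lower in the column, 6 lower in root, and 8 higher and 8 lower in flowers, and 131 members stayed on the list. With the deposited values 19 were lower in the column and 41 lower in flowers, and with a floor of 5 there were 26 higher in flowers. The dimmer probe, which only 102 members have, gave 19 higher and 5 lower in the pedicel, 12 and 11 in the column, 30 and 20 in pollinia, 7 lower in root and 5 lower in flowers, and 94 members on the list. With V3-Flower by itself as the baseline 39 members stayed, and with Bud-L by itself, an alternative chosen after seeing the data, 71. The cause was not tested, apart from the smaller number of contigs with 2 probes. No contig named in the 5 comparisons changed direction or lost its call under an alternative in which it was tested. A fit with scan batch could not be run for root against leaf. Signals at the floor of 4.32 limit the folds of dim contigs.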
